A study of Mus musculus with 3 samples.

Results

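The 6 genes described here are Olig1, Olig2, Sox8, Sox10, Pdgfra and Lhfpl3, which are known for their expression in the oligodendrocyte lineage. They were taken by their gene symbol, and each of the 6 has exactly 1 row among the 31053 genes of every matrix. Single-cell RNA was counted in 3 libraries of C57BL/6 mouse cortical cells, and each group is 1 library. The cells were fixed in methanol and run on the 10x Genomics system, which tags each captured RNA with a unique molecular identifier (UMI). Since no group has a second library, no difference between groups can be tested, and each bracket gives an exact 95% interval for counting error alone.

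MIM-treated astrocytes were astrocyte cultures moved to MIM, a serum-free mixture of DMEM-F12 and Neurobasal with B27, N2, 20 ng/mL FGF2 and up to 6 metabolites, namely cysteine, glycine, methionine, threonine, putrescine and S-adenosylmethionine. They were collected no later than day 5, and the labels give neither the metabolites nor the day of this library. Astrocytes were kept in DMEM-F12 with 10% heat-inactivated fetal bovine serum, B27 and Glutamax. The protocol allows 2 sources for them, either cortex of P4 pups sorted with beads against GLAST or neurospheres put into the astrocyte medium, and it does not say which was used here, while the age label is E14.5. Neural stem cells were neurospheres from E14.5 cortex in Neurobasal with B27 and 20 ng/mL each of EGF and FGF2, used within their first 3 passages. Serum, FGF2, base medium and metabolites differ together between the MIM-treated and the untreated astrocytes, so their parts cannot be told apart.

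Olig1 and Olig2 are neighbouring basic helix-loop-helix transcription factors, and Olig2 is needed in the mouse for the specification of oligodendrocyte precursor cells. Sox8 and Sox10 belong to the SoxE group of HMG-box factors, and Sox10 is required for terminal oligodendrocyte differentiation. Pdgfra is the receptor through which platelet-derived growth factor drives the division of precursor cells, and it is one of the defining markers of that stage. Olig1 and Olig2 are less restrictive, since neural progenitors and some astrocytes also transcribe them.

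The promoter sequences of members are shown because the report turns on how these genes vary together. RefSeq (GRCm38.p6) held an entry for 4 of the 6, namely Olig2, Sox8, Pdgfra and Lhfpl3. Each line gives the 250 bases before the RefSeq start, read 5′ to 3′ on the strand of the gene. Capitals mark CANNTG, the core letters that basic helix-loop-helix factors bind, and ACAAT or its reverse complement ATTGT, letters that Sox factors bind. CANNTG reads the same on both strands, and no match overlapped one of the other motif. The Olig2 stretch is chr16:91225300-91225549 on the plus strand, the Sox8 stretch chr17:25570687-25570936 on the minus strand, the Pdgfra stretch chr5:75152001-75152250 on the plus strand and the Lhfpl3 stretch chr5:22745804-22746053 on the plus strand.
Olig2: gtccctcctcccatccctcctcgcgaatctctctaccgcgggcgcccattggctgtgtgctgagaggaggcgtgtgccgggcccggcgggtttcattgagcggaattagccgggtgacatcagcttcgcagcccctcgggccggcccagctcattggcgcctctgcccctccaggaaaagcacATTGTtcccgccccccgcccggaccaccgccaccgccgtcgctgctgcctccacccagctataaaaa
Sox8: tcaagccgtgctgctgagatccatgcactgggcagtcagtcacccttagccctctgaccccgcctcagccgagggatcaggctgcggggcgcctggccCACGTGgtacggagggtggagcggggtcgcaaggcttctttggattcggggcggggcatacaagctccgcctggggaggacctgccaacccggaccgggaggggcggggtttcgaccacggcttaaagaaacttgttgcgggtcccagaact
Pdgfra: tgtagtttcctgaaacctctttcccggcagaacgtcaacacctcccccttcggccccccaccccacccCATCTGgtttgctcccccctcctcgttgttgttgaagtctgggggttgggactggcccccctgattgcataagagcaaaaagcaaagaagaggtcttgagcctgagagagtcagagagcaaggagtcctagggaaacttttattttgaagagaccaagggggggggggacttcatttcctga
Lhfpl3: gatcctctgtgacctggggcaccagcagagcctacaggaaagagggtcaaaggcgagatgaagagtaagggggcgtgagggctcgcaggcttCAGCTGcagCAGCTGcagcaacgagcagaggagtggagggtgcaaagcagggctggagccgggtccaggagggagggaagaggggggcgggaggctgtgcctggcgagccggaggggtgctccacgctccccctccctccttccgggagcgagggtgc
CANNTG was found once upstream of Sox8, as CACGTG, once upstream of Pdgfra, as CATCTG, and 2 times upstream of Lhfpl3, both as CAGCTG. It was not found in the Olig2 stretch, which held 1 ATTGT. Of 32851 promoter stretches of the same length, 66.2% held CANNTG and 27.7% held ACAAT or ATTGT, so these matches describe the letters and mark neither a site nor a cause.

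By GENCODE vM21 coordinates (mm10, the build the authors used), Olig2 lies at chr16:91225457-91228677 and Olig1 at chr16:91269772-91271933, both on the plus strand with 41094 bases between them. Sox8 lies at chr17:25565892-25570686 and Sox10 at chr15:79154908-79165240, both on the minus strand. Pdgfra lies at chr5:75152292-75198215 and Lhfpl3 at chr5:22746059-23275597, both on the plus strand, so Pdgfra and Lhfpl3 share a chromosome and are far apart on it. All 6 are protein coding. The gene 6030443J06Rik overlaps Lhfpl3 on its strand and held 41 UMIs in MIM-treated astrocytes, 54 in astrocytes and 22 in neural stem cells. In astrocytes that is in the range of Lhfpl3 itself, which held 96 UMIs there.

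The kept cells numbered 14964 in MIM-treated astrocytes, 9818 in astrocytes and 9145 in neural stem cells, and they held 50906724 UMIs in MIM-treated astrocytes, 50594420 in astrocytes and 14689259 in neural stem cells. Median UMIs per cell were 3156 in MIM-treated astrocytes, 5089 in astrocytes and 1379 in neural stem cells, and Malat1 took 9.44% of UMIs in MIM-treated astrocytes, 13.7% in astrocytes and 26.9% in neural stem cells. The libraries shared between 25 and 43 cell barcodes pairwise. Aqp4, a defining astrocyte marker, had 22.9 UMIs per 1000000 UMIs (CPM) in MIM-treated astrocytes, 566 CPM in astrocytes and 11.9 CPM in neural stem cells. Gfap, another one, had 4.05 CPM in MIM-treated astrocytes, 271 CPM in astrocytes and 1.16 CPM in neural stem cells. Of the list of 12 astrocyte markers, 4 were at least 2-fold lower in MIM-treated than in untreated astrocytes with 1 CPM added (Aldoc, Aqp4, Clu and Gfap), 3 were higher by as much (Cldn10, S100b and Slc4a4) and 5 were neither. Of all 13876 genes with at least 20 UMIs in these libraries together, 15.2% were lower and 8.49% higher. The list summed to 1661 CPM in MIM-treated astrocytes, 6218 CPM in astrocytes and 759 CPM in neural stem cells. Microglial markers summed to at most 0.395 CPM and endothelial markers to at most 1.46 CPM in any library, and mural and fibroblast markers to 5.13 CPM in MIM-treated astrocytes, 295 CPM in astrocytes, mostly Tagln, and 11.3 CPM in neural stem cells.

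By plain totals each of the 6 genes was lower in MIM-treated astrocytes and lowest in untreated astrocytes, with neural stem cells highest, except that TMM factors, which rescale library totals, put Olig1 and Sox8 slightly higher in MIM-treated astrocytes than in the neural stem cell library. The genes fell into 2 kinds by how close the MIM-treated library came to the neural stem cell library. Olig1, Olig2, Sox8 and, less closely, Lhfpl3 stood near its level, while Sox10 and Pdgfra stood far below it. Counting intervals overlapped between neighbouring libraries in that order only for Sox10, between MIM-treated and untreated astrocytes.

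**Figure D1:**
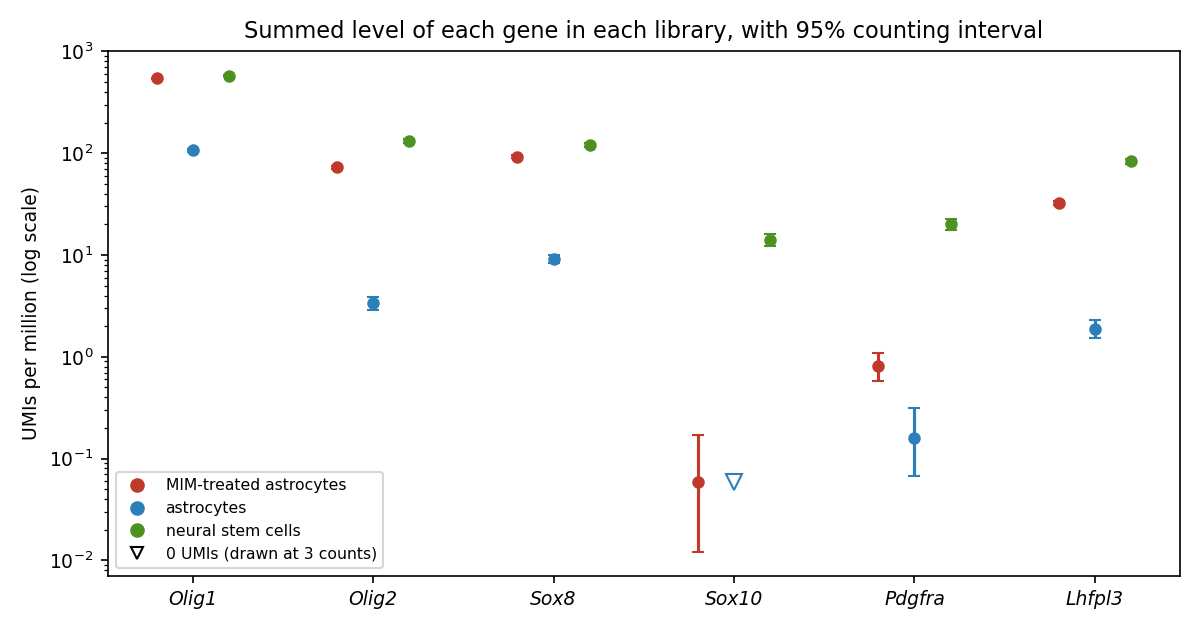
CPM (log scale) of each of the 6 genes in MIM-treated astrocytes (red), astrocytes (blue) and neural stem cells (green). Points are the summed level of 1 library and bars its exact 95% Poisson interval, and the open triangle marks Sox10 in astrocytes, which had 0 UMIs and is drawn at the level of 3 counts. Sox10 and Pdgfra are the genes for which the red points lie far below the green ones.

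Olig1 held 27841 UMIs in MIM-treated astrocytes, 5395 in astrocytes and 8517 in neural stem cells. In CPM this was 547 (540 to 553) in MIM-treated astrocytes, 107 (104 to 110) in astrocytes and 580 (568 to 592) in neural stem cells. Olig1 was thus plentiful in every library, untreated astrocytes included. It was 5.13-fold higher in MIM-treated than in untreated astrocytes (4.98 to 5.28) and 5.44-fold lower in astrocytes than in neural stem cells (5.25 to 5.63). Between MIM-treated astrocytes and neural stem cells it differed by a log2 ratio of −0.08, and the sign depended on scaling, with −0.39 when Malat1 was left out of the totals and 0.32 with TMM factors.

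Olig2, the factor of the pair most tied to lineage choice, had 72.6 CPM in MIM-treated astrocytes (70.3 to 75.0), 3.36 CPM in astrocytes (2.87 to 3.90) and 131 CPM in neural stem cells (125 to 137). The astrocyte value rested on 170 UMIs, against 3698 in MIM-treated astrocytes. Olig2 therefore spanned a far wider range over the libraries than its neighbour Olig1 did. It was 39.0-fold lower in astrocytes than in neural stem cells (33.3 to 45.9) and 1.80-fold lower in the MIM-treated library than in the neural stem cell library (1.71 to 1.91).

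Sox8 had 92.5 CPM in MIM-treated astrocytes (89.9 to 95.2), 9.21 CPM in astrocytes (8.39 to 10.1) and 121 CPM in neural stem cells (115 to 127). The gene was 10.0-fold higher in MIM-treated than in untreated astrocytes (9.13 to 11.1). It was 13.1-fold lower in astrocytes than in neural stem cells (11.8 to 14.6). MIM-treated astrocytes had 1.31-fold less Sox8 than neural stem cells (1.24 to 1.38), a difference that TMM factors removed, at a log2 ratio of 0.02.

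Sox10 is the SoxE factor required for terminal differentiation. It held 3 UMIs in 3 MIM-treated cells, 0 in astrocytes and 208 in neural stem cells. In CPM this was 0.0589 in MIM-treated astrocytes (0.0122 to 0.172), 0 in astrocytes and 14.2 in neural stem cells (12.3 to 16.2). The count of 0 in 9818 astrocytes allows a share of up to 0.0306% of cells with a UMI. Against neural stem cells, MIM-treated astrocytes were 240-fold lower (81.1 to 1175). Astrocytes were 239-fold lower when 3 counts were put in place of 0, a value that leaves out counting error. No fold is given between MIM-treated and untreated astrocytes, since both were at or under 3 counts.

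Pdgfra, the receptor, had 0.805 CPM in MIM-treated astrocytes from 41 UMIs (0.578 to 1.09), 0.158 CPM in astrocytes from 8 UMIs (0.0683 to 0.312) and 20.0 CPM in neural stem cells from 294 UMIs (17.8 to 22.4). MIM-treated astrocytes stood above untreated ones and far below neural stem cells. The ratio of MIM-treated to untreated astrocytes was 5.09 (2.36 to 12.6), close to that of Olig1, yet at these low levels its log2 ratio with 1 CPM added was 0.64. Pdgfra was 24.9-fold lower in the MIM-treated library than in the neural stem cell library (17.9 to 35.4) and 127-fold lower in astrocytes than in neural stem cells (63.4 to 296).

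Lhfpl3 encodes a membrane protein of the LHFPL family whose transcript is a marker of oligodendrocyte precursors. It had 32.2 CPM in MIM-treated astrocytes (30.7 to 33.8), 1.90 CPM in astrocytes (1.54 to 2.32) and 83.0 CPM in neural stem cells (78.4 to 87.8). It was 17.0-fold higher in MIM-treated than in untreated astrocytes (13.8 to 21.1). Lhfpl3 was 43.7-fold lower in astrocytes than in neural stem cells (35.5 to 54.4) and 2.58-fold lower in the MIM-treated library than in the neural stem cell library (2.39 to 2.78).

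A gene was called higher or lower when its CPM differed by at least 2-fold with 1 CPM added to both libraries and the libraries held at least 20 UMIs together. Between MIM-treated and untreated astrocytes, 5 of the 6 genes could be measured, 4 were higher (Olig1, Olig2, Sox8 and Lhfpl3), 0 were lower and Pdgfra was neither. Of all 13876 genes measured in this comparison, 8.49% were higher and 15.2% lower. The median log2 ratio was 3.20 over the 5 genes and −0.19 over all genes. Pdgfra passed when each cell weighed the same, at a log2 ratio of 1.18, and with a pseudocount of 0.1 CPM, at 1.81. TMM factors shifted the median of all genes by 0.21 and moved the higher share of all calls to 49.6%, against 35.9% with plain totals, and the 4 calls held.

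Between astrocytes and neural stem cells, 6 of 6 genes were lower in astrocytes, where 22.6% of 13647 genes were lower and 19.9% higher. The median log2 ratio was −4.05 over the 6 genes and −0.03 over all genes. Between MIM-treated astrocytes and neural stem cells, 3 of 6 genes were lower (Sox10, Pdgfra and Lhfpl3), 0 were higher and Olig1, Olig2 and Sox8 were neither, where 20.5% of 13097 genes were lower and 9.29% higher. With only genes of at least 50 CPM in either library, 4 of the 6 were left and 1 of them, Lhfpl3, was lower, where 16.2% of 2830 genes were lower and 20.3% higher. The comparisons share libraries pairwise, so these counts are not independent of each other. The last comparison was the most sensitive to scaling: TMM factors moved the median of all genes by 0.36 and the higher share of all calls to 59.7%, leaving Malat1 out of the totals moved them by −0.30 and to 16.1%, and plain totals gave 31.1%. Lhfpl3 lost its call with TMM factors and when each cell weighed the same, at −0.54, while Olig2 gained one, at −1.15, when Malat1 was left out. Sox10 and Pdgfra kept theirs under all of these scalings.

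The share of cells with a UMI depends on depth, so cells were also thinned to 1000 UMIs each, which left out 6.50% of MIM-treated cells, 3.58% of astrocytes and 15.9% of neural stem cells as too shallow. Olig1 was found in 41.0% of thinned MIM-treated cells (40.2 to 41.8), 9.68% of astrocytes (9.09 to 10.3) and 35.4% of neural stem cells (34.4 to 36.5). Without thinning the shares were 69.4% in MIM-treated astrocytes, 36.5% in astrocytes and 45.1% in neural stem cells. At equal depth the share was larger for MIM-treated cells than for neural stem cells, with intervals that do not overlap, against the order of the CPM. Share and CPM thus order these libraries differently for Olig1, and neither order is preferred here. After thinning, a single cell held at most 8 Olig1 UMIs in MIM-treated astrocytes, 4 in astrocytes and 11 in neural stem cells.

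Olig2 was found in 8.45% of thinned MIM-treated cells (7.99 to 8.92), 0.338% of astrocytes (0.231 to 0.477) and 842 of 7688 neural stem cells (10.3% to 11.7%). Unthinned, it was in 20.2% of MIM-treated cells, 1.67% of astrocytes and 16.2% of neural stem cells. Sox8 was found in 10.8% of thinned MIM-treated cells (10.3 to 11.3), 0.908% of astrocytes (0.727 to 1.12) and 11.5% of neural stem cells (10.8 to 12.2). Unthinned, it was in 24.5% of MIM-treated cells, 4.44% of astrocytes and 16.5% of neural stem cells. For both factors the share of cells followed the order of the summed levels, and for Sox8 the intervals of MIM-treated astrocytes and neural stem cells overlapped. The unthinned shares put MIM-treated astrocytes above the shallower neural stem cells, against the CPM, and are not read as an order.

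Lhfpl3 was found in 629 of 13991 thinned MIM-treated cells (4.16% to 4.85%), 0.180% of astrocytes (0.105 to 0.287) and 6.98% of neural stem cells (6.43 to 7.58). Unthinned, it was in 7.81% of MIM-treated cells, 0.927% of astrocytes and 9.86% of neural stem cells. Pdgfra was found in 21 of 13991 thinned MIM-treated cells, which is 0.150% (0.0929 to 0.229), in 1 of 9467 astrocytes and in 142 of 7688 neural stem cells, which is 1.85% (1.56 to 2.17). Unthinned, Pdgfra was in 0.254% of MIM-treated cells, 0.0815% of astrocytes and 2.69% of neural stem cells. Sox10 was found in 3 of 13991 thinned MIM-treated cells, 0 of 9467 astrocytes and 121 of 7688 neural stem cells, which is 1.57% (1.31 to 1.88). Unthinned, it was in 0.0200% of MIM-treated cells, 0 astrocytes and 1.92% of neural stem cells. Even in neural stem cells, Sox10 and Pdgfra were thus detected in a small minority of cells.

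Counting genes per cell after thinning, at least 2 of the 6 were found in 12.5% of MIM-treated cells (11.9 to 13.0), which is 1747 cells, in 0.116% of astrocytes (0.0580 to 0.208), which is 11 cells, and in 15.1% of neural stem cells (14.3 to 15.9), which is 1162 cells. The astrocyte share rests on so few cells that another random draw of the thinning gave 0.222%. None of the 6 was found in 6995 of 13991 MIM-treated cells, 8426 of 9467 astrocytes and 3851 of 7688 neural stem cells. The highest number in 1 cell was 4 in MIM-treated astrocytes, in 33 cells, 2 in astrocytes and 5 in neural stem cells, in 2 cells. Olig1 without any other of the 6 was the most frequent single pattern in each library, in 4124 MIM-treated cells, 905 astrocytes and 1747 neural stem cells. In MIM-treated astrocytes the next patterns were Olig1 with Sox8 in 629 cells and Sox8 without the others in 550 cells, and 29 cells held Olig1, Olig2, Sox8 and Lhfpl3 together. Among neural stem cells, 289 cells held Olig1 with Olig2 and 59 cells held Olig1, Olig2 and Sox8.

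**Figure D2:**
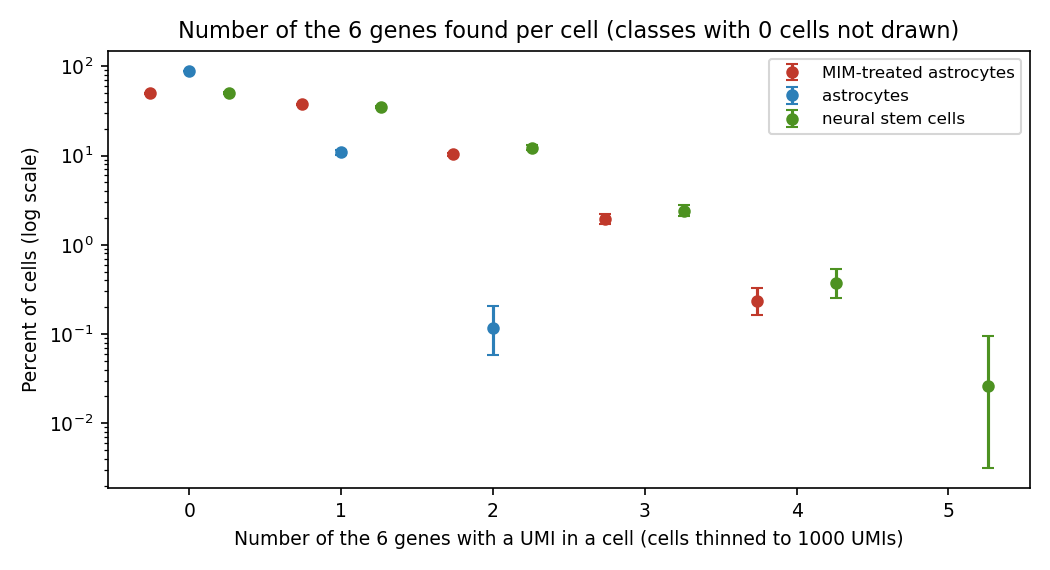
Percent of cells (log scale) by the number of the 6 genes with a UMI after thinning to 1000 UMIs, in MIM-treated astrocytes (red), astrocytes (blue) and neural stem cells (green), with exact 95% binomial intervals as bars. MIM-treated astrocytes and neural stem cells follow each other up to 4 genes, whereas astrocytes end at 2 genes with 0.116% of cells.

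Whether genes went together was read from the number of thinned cells with both genes over the number that their separate shares give when multiplied, here called the pair ratio. A pair was counted where at least 1 such cell would be met by the product, and called together at a ratio of at least 2. For any member paired with any other gene of the matrix, 4.23% of pairs reached 2 in MIM-treated astrocytes, 4.05% in astrocytes and 2.99% in neural stem cells. This share differed by member. In MIM-treated astrocytes it was 0.572% for Olig1, 3.26% for Olig2, 3.51% for Sox8, 2.7% for Sox10, 9.46% for Lhfpl3 and 10.4% for Pdgfra. In neural stem cells it was 0.774% for Olig1, 2.29% for Olig2, 1.81% for Sox8, 5.59% for Sox10, 3.62% for Lhfpl3 and 6.21% for Pdgfra. The intervals of a ratio are exact Poisson intervals on the number of cells with both.

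In MIM-treated astrocytes 10 of the 15 pairs could be counted and 4 were together, with a median ratio of 1.63. Olig2 and Lhfpl3 met in 127 cells at a ratio of 2.39 (1.99 to 2.84). Sox8 and Lhfpl3 met in 157 cells at 2.31 (1.96 to 2.70). The other 2 pairs joined Pdgfra to the factors and rested on few cells, 8 for Olig2 and Pdgfra at 4.51 (1.95 to 8.89) and 9 for Sox8 and Pdgfra at 3.96 (1.81 to 7.52). Each of the 4 fell under 2 in some alternative. Without thinning, the ratio was 1.69 for Olig2 and Lhfpl3, 1.54 for Sox8 and Lhfpl3 and 1.93 for Sox8 and Pdgfra. Without Malat1, mitochondrial and ribosomal protein genes it was 1.59 for Olig2 and Pdgfra and 1.90 for Sox8 and Lhfpl3. Pdgfra and Lhfpl3 met in 9 of the 21 Pdgfra cells, a pair with too small a product to be counted. Of the cells with Lhfpl3, the membrane protein gene, 20.2% held Olig2 (17.1 to 23.5), against 7.90% of the other cells (7.44 to 8.37).

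Olig1 reached a ratio of 2 with none of the others in MIM-treated cells thinned to 1000 UMIs, at 1.33 for Olig2 (1.23 to 1.44), 1.38 for Sox8 (1.29 to 1.48) and 1.63 for Lhfpl3 (1.48 to 1.80). It met Pdgfra at 1.39 (0.721 to 2.44), which became 2.21 with thinning to 500 UMIs, and Sox10 in 1 cell at 0.814 (0.0206 to 4.53). A gene in 41.0% of cells cannot exceed a ratio of about the inverse of that share, so its pairs have a lower ceiling. Olig2 and Sox8 met in 207 MIM-treated cells at 1.62 (1.41 to 1.85). MIM-treated cells with more of the 6 genes were shallower before thinning, with medians of 3881 UMIs for cells with none, 3039 with 1, 2173 with 2 and 1621 with 3 or more, and Malat1 took 9.24% of UMIs in cells with none and 13.7% in cells with 3 or more. The part of these differences in the pair ratios was not tested.

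In astrocytes 3 of the 15 pairs could be counted and 0 were together. Olig1 met Olig2 in 4 cells at a ratio of 1.29 (0.352 to 3.31), Sox8 in 7 cells at 0.841 (0.338 to 1.73) and Lhfpl3 in 0 cells where the product gives 1.64. Each of these values rests on at most 7 cells. Without thinning, 7 pairs could be counted and 0 were together, with Olig1 and Sox8 at 1.01.

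In neural stem cells all 15 pairs could be counted and 3 were together, with a median ratio of 1.40. These 3 joined the sparsest genes. Sox10 and Pdgfra met in 12 cells at 5.37 (2.77 to 9.38), Sox10 and Lhfpl3 in 40 cells at 4.73 (3.38 to 6.44) and Pdgfra and Lhfpl3 in 39 cells at 3.93 (2.80 to 5.38). Of the cells with Sox10, 33.1% also held Lhfpl3 (24.8 to 42.2), against 6.57% of the other cells (6.02 to 7.15). Olig2 met Sox10 at 1.96 (1.28 to 2.88), just under the threshold, and Lhfpl3 at 1.62 (1.31 to 1.98). Sox8 met Pdgfra at 1.16 (0.701 to 1.82) in this library, and the difference from MIM-treated astrocytes was not tested.

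**Figure D3:**
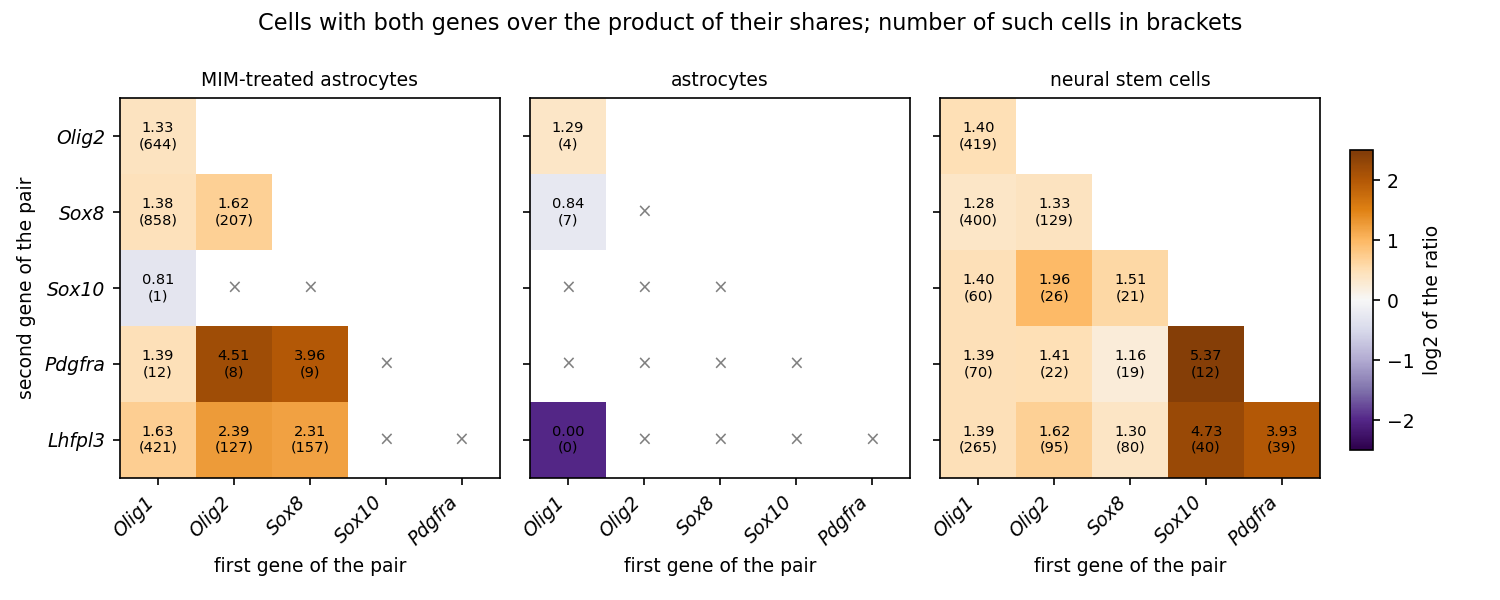
Pair ratios of the 6 genes in MIM-treated astrocytes, astrocytes and neural stem cells, one square a pair, with the number of cells holding both genes in brackets and colour for log2 of the ratio. A cross marks a pair with a product under 1 cell. The 3 highest ratios of neural stem cells, 3.93 to 5.37, stand where Sox10, Pdgfra and Lhfpl3 meet, and those of MIM-treated astrocytes where Pdgfra and Lhfpl3 meet Olig2 and Sox8.

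Cells were clustered within each library without the 6 genes, so that their own counts did not shape the clusters. Genes that vary with the 6 stayed in, so levels over clusters are not independent of how clusters were made. In MIM-treated astrocytes, cluster 5 had the highest CPM of 6 of the 6 genes. It held 1202 cells, 8.03% of the library, with a median of 1483 UMIs, and its leading genes were Ppp1r16b, Nav2, Dpp6, Epb41 and Gadd45g. Lhfpl3 had 480 CPM there (449 to 513), against 5.78 to 38.0 CPM in the other 5 clusters, and 53.7% of its UMIs. Pdgfra had 11.99 CPM in cluster 5 (7.52 to 18.2), also with 53.7% of its UMIs, and 2 of the 3 Sox10 UMIs lay in it.

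Cluster 5 held 9.58% of the Olig1 UMIs, 13.8% of those of Olig2 and 12.6% of those of Sox8, whereas cluster 2 held 34.2% for Olig1, 31.3% for Olig2 and 36.3% for Sox8. Olig1 was less concentrated, with 1454 CPM in cluster 5 (1399 to 1510), 1092 CPM in cluster 2 (1071 to 1115) and 276 CPM at its lowest in cluster 4. Cluster 2 held 3280 cells led by Prss23, Gadd45g, Lrrn1 and Sox4. Olig2 had 278 CPM in cluster 5 (254 to 303) and 133 in cluster 2, and Sox8 had 324 CPM in cluster 5 (299 to 352) and 196 in cluster 2. Cluster 1, which was astrocyte-like by Aldoc, Slc4a4 and Clu among its 10 leading genes, had 425 CPM of Olig1, 40.7 of Olig2 and 5.78 of Lhfpl3. After thinning, at least 2 of the 6 genes were found in 51.4% of cluster 5 cells (48.4 to 54.4), 22.5% of cluster 2 (21.1 to 24.0) and 3.56% of cluster 1 (3.07 to 4.12).

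Olig1 varied 5.26-fold between its highest and its lowest cluster in MIM-treated astrocytes and 1.80-fold in untreated astrocytes, and Sox8 7.90-fold in MIM-treated and 2.67-fold in untreated astrocytes. Olig2 varied 6.83-fold in MIM-treated and 5.21-fold in untreated astrocytes, where the lowest cluster held 2 UMIs. Among untreated astrocytes Olig1 was highest in cluster 2, at 135 CPM (130 to 140), and lowest in cluster 3, at 74.9 CPM (69.3 to 80.9), which do not overlap, and it was in 7.34% to 13.3% of the thinned cells of a cluster. Olig2 was at most 4.99 CPM, Sox8 at most 20.6 CPM and Lhfpl3 at most 2.36 CPM in any of the 6 clusters. RNA free in the droplet suspension gives a like, low share in every cluster, and its part in the Olig1 of this library was not tested. For each 100 Olig1 UMIs, Sox8 had 5.73 in cluster 2 and 23.5 in cluster 4.

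In neural stem cells, cluster 4 had the highest CPM of Sox8, Sox10, Pdgfra and Lhfpl3. It held 3168 cells, 34.6% of the library, and was led by Ppp1r16b, Chd3, Helt, Myt1 and Epb41. Sox10 had 34.2 CPM there (28.9 to 40.2) with 70.2% of its UMIs, Pdgfra 54.9 CPM (48.0 to 62.3) with 79.6% and Lhfpl3 202 CPM (188 to 216) with 70.5%. Of the 10 leading genes of this cluster, 4 were also among the 10 of MIM-treated cluster 5, namely Ppp1r16b, Epb41, Dll3 and Prss23. Set side by side, MIM-treated cluster 5 had 480 CPM of Lhfpl3, against 202 CPM in neural stem cell cluster 4, and 1.09 CPM of Sox10, against 34.2 CPM. The size of the Lhfpl3 difference depended on the cluster resolution. At resolution 1 the highest Lhfpl3 was 332 CPM (312 to 354) in MIM-treated astrocytes and 278 CPM (259 to 299) in neural stem cells. In those same clusters Sox10 had 0.689 CPM in MIM-treated astrocytes and 49.0 CPM in neural stem cells.

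The lowest levels in neural stem cells were in cluster 2, astrocyte-like by Gja1, Slc4a4 and Clu, with 140 CPM of Olig1, 20.1 of Olig2, 43.4 of Sox8, 1.09 of Sox10, 0.543 of Pdgfra and 7.60 of Lhfpl3. After thinning, Sox10 was found in 0 of its 1039 cells, which allows a share of up to 0.289%, and Pdgfra in 1, against 3.90% and 4.72% of the 2541 cells of cluster 4. Median depths were 1352.5 UMIs in cluster 2 and 1272 in cluster 4. None of the 3 libraries holds a cell type that should lack all of these genes, so the astrocyte-like cells serve as the background for Sox10 and Pdgfra. For each 100 Olig1 UMIs, Lhfpl3 had 33.0 in MIM-treated cluster 5 and 1.36 in cluster 1, and 27.0 in neural stem cell cluster 4 and 5.43 in cluster 2.

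**Figure D4:**
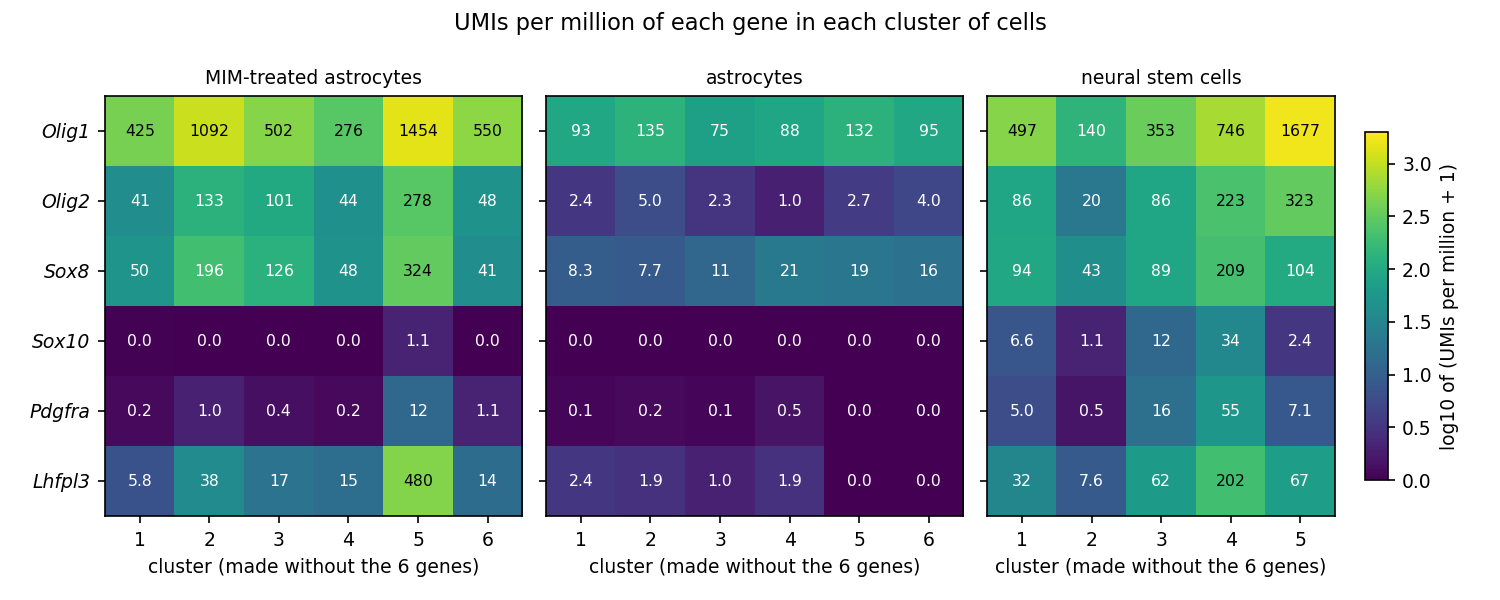
CPM of each of the 6 genes (rows) in each cluster (columns) of MIM-treated astrocytes, astrocytes and neural stem cells, with colour for log10 of the value plus 1. Clusters were made without the 6 genes and are numbered within a library. Cluster 5 of MIM-treated astrocytes, with 480 CPM of Lhfpl3, and cluster 4 of neural stem cells, with 202 CPM, stand out, and Olig1 is the only gene above 20.6 CPM in any astrocyte cluster.

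Pairs were also counted inside MIM-treated cluster 5 and neural stem cell cluster 4, where their median ratio was lower than over the whole library. In MIM-treated cluster 5, 11 pairs could be counted, 0 reached a ratio of 2 and the median was 0.991. These 11 are not the same set as the 10 pairs counted over the library. Olig1 was in 69.1% of the thinned cells of this cluster, so by its ceiling none of its pairs could reach 2 there. Olig2 and Lhfpl3 met there at 0.966 (0.779 to 1.18), against 2.39 over the library, and Sox8 and Lhfpl3 at 0.938 (0.767 to 1.14), against 2.31. Inside this cluster those pairs were thus near the product of their shares. In neural stem cell cluster 4 the median of 15 pairs was 1.01 and 2 reached 2, Sox10 with Lhfpl3 at 2.32 (1.61 to 3.22) and Sox10 with Pdgfra at 2.14 (1.03 to 3.93). Olig1 was in 48.7% of the thinned cells of this cluster, so its pairs could barely exceed 2 there. Pdgfra and Lhfpl3 met there at 1.69 (1.15 to 2.40), under the threshold of 2. MIM-treated cluster 4 was led by the mitosis genes Ube2c, Prc1 and Cdk1. In it Lhfpl3 met Olig1 at 2.05 (1.28 to 3.10), Olig2 at 3.09 (1.24 to 6.36) and Sox8 at 3.04 (1.22 to 6.27).

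Dividing cells, taken as those with at least 3 of 25 mitosis genes after thinning, were 23.4% of MIM-treated cells, 0 astrocytes and 5.70% of neural stem cells. In MIM-treated astrocytes Olig1 was in 25.8% of dividing cells (24.3 to 27.3), against 45.6% of the others (44.7 to 46.6), and Lhfpl3 in 1.62% (1.21 to 2.11), against 5.38% (4.96 to 5.82). Olig2 was in 6.75% of dividing MIM-treated cells (5.91 to 7.66), against 8.97% of the others (8.43 to 9.53), and Sox8 in 7.30% (6.43 to 8.24), against 11.9% (11.3 to 12.5). The MIM-treated clusters led by mitosis genes were unlike each other. Olig2 was in 10.7% and Sox8 in 13.1% of the thinned cells of cluster 3, led by Pttg1, Cenpa and Ccnb2, above their shares in the library, whereas Olig2 was in 4.82% and Sox8 in 4.90% of those of cluster 4. Pdgfra, a receptor for a mitogen, was in 0 of 3276 dividing MIM-treated cells, which allows up to 0.0916%, and in 21 of 10715 others. In neural stem cells Olig1 was in 24.2% of dividing cells (20.3 to 28.5), against 36.1% of the others (35.0 to 37.2), Olig2 in 7.08% (4.86 to 9.90), against 11.2% (10.5 to 11.9), and Lhfpl3 in 3.88% (2.28 to 6.14), against 7.17% (6.59 to 7.79). Pdgfra was in 1.60% (0.645 to 3.27), against 1.86% (1.56 to 2.20), which overlap, as did the shares of Sox8 and Sox10.

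Other genes of oligodendrocyte precursors, a list of 16, did not move as one block. Between MIM-treated and untreated astrocytes 7 were higher, 3 were lower and the median log2 ratio was 0.83, where 8.49% of all genes were higher and 15.2% lower. Ptprz1, a receptor-type phosphatase of the precursor surface, had 1510 CPM in MIM-treated astrocytes and 432 CPM in astrocytes, and Fabp7, the brain fatty acid-binding protein also found in progenitors, had 10036 CPM in MIM-treated astrocytes and 1793 CPM in astrocytes. C1ql1, a secreted C1q-like protein named after its values were seen, went the opposite way with 2.61 CPM in MIM-treated astrocytes and 107 CPM in astrocytes. Between astrocytes and neural stem cells 13 of 15 measured were lower in astrocytes, 1 was higher and the median was −2.34. Of all genes 22.6% were lower and 19.9% higher there. Between MIM-treated astrocytes and neural stem cells 11 of 16 were lower, 1 was higher and the median was −1.36, where 20.5% of all genes were lower and 9.29% higher.

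Of 19 further regulators of the lineage, 16 could be measured between MIM-treated and untreated astrocytes, of which 4 were higher, 3 were lower and the median was 0.72. Of all genes 8.49% were higher and 15.2% lower, so the lower count is near the share of all genes. Hes5, a Notch target that holds back differentiation, had 60.5 CPM in MIM-treated astrocytes and 1.38 CPM in astrocytes, and was named after its values were seen. Sox9, the third SoxE gene, had 98.6 CPM in MIM-treated astrocytes, 256 CPM in astrocytes and 413 CPM in neural stem cells. It went against Sox8 between MIM-treated and untreated astrocytes, and like Sox8 it was highest in neural stem cells. Between MIM-treated astrocytes and neural stem cells 11 of 17 regulators were lower and 0 higher, where 20.5% of all genes were lower and 9.29% higher. Myrf, the factor that starts myelin transcription, had 8 UMIs in MIM-treated astrocytes, 0 in astrocytes and 10 in neural stem cells.

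Among 18 genes of differentiating and myelinating oligodendrocytes, 10 could be measured between MIM-treated and untreated astrocytes, of which 1 was higher, 3 were lower and the median was −0.26. Of all genes 8.49% were higher and 15.2% lower. Mbp, myelin basic protein, had 6 UMIs in MIM-treated astrocytes, 15 in astrocytes and 29 in neural stem cells. Between astrocytes and neural stem cells 6 of 12 genes measured were lower and 3 higher, where 22.6% of all genes were lower and 19.9% higher. Between MIM-treated astrocytes and neural stem cells 7 of 12 were lower and 1 higher, where 20.5% of all genes were lower and 9.29% higher. Of the PDGF family, Pdgfa, the main ligand of Pdgfra, had 59.4 CPM in MIM-treated astrocytes, 66.8 CPM in astrocytes and 19.6 CPM in neural stem cells, so the ligand was lowest in the library in which its receptor was highest.

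The genes most like the 6 in single cells were ranked by their CPM in cells with at least 2 of the 6 over their CPM in cells with none, with 10 CPM added, among genes of at least 100 CPM in the first. In MIM-treated astrocytes the first 8 of 1332 were Gadd45g, Prss23, Ncald, Nav2, Marcksl1, Sox4, Fchsd2 and Map2, with ratios of 4.66 for Gadd45g to 3.45 for Map2. In neural stem cells the first 8 of 1115 were Ppp1r16b, Prss23, Ppp1r14b, Traf4, Midn, Chd3, Sox6 and Pcdh11x, with ratios of 3.51 for Ppp1r16b to 2.19 for Pcdh11x. Prss23, a secreted serine protease, stood second in both. At the other end, Prc1, Sparcl1 and Clu were lowest in MIM-treated astrocytes, at ratios of 0.257 for Prc1 to 0.336 for Clu, and Sparcl1, Pla2g7 and Mt3 in neural stem cells, at 0.202 for Sparcl1 to 0.289 for Mt3. In astrocytes only 11 cells held 2 of the genes, and the ranking there rested on 2 or 3 UMIs a gene.

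The cells with a Sox10 or Pdgfra UMI were compared with the rest of their library for genes outside the 6, a choice made after their values were seen. Among neural stem cells these were 251 cells against 7437. Of 15 precursor genes measured, 7 were at least 2-fold higher in them and 0 were lower by as much, with a median ratio of 1.57. Of 10204 genes other than the 6 measured in this contrast, 7.44% were higher and 22.4% lower by 2-fold. Gpr17, a receptor of precursors that are about to differentiate, was 10.3-fold higher (5.55 to 18.2), Pcdh15, a protocadherin, 6.30-fold (2.84 to 12.6), C1ql1 5.80-fold (2.49 to 11.99) and Cspg4, the NG2 proteoglycan, 2.87-fold (1.27 to 5.68). Bcas1, a gene of newly formed oligodendrocytes, was 3.70-fold higher (1.96 to 6.48). Its list, that of differentiating and myelinating genes, did not rise as a whole. Of 6 measured, 2 were at least 2-fold higher and 1 lower by as much, with a median ratio of 0.918. Of 10 astrocyte markers 9 were lower by at least 2-fold, among them Slc1a3 at a ratio of 0.220 (0.136 to 0.338) and Aldoc at 0.133 (0.0160 to 0.482), and the progenitor genes Hes5 and Egfr stood at 0.188 (0.0858 to 0.358) and 0.275 (0.125 to 0.524).

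**Figure D5:**
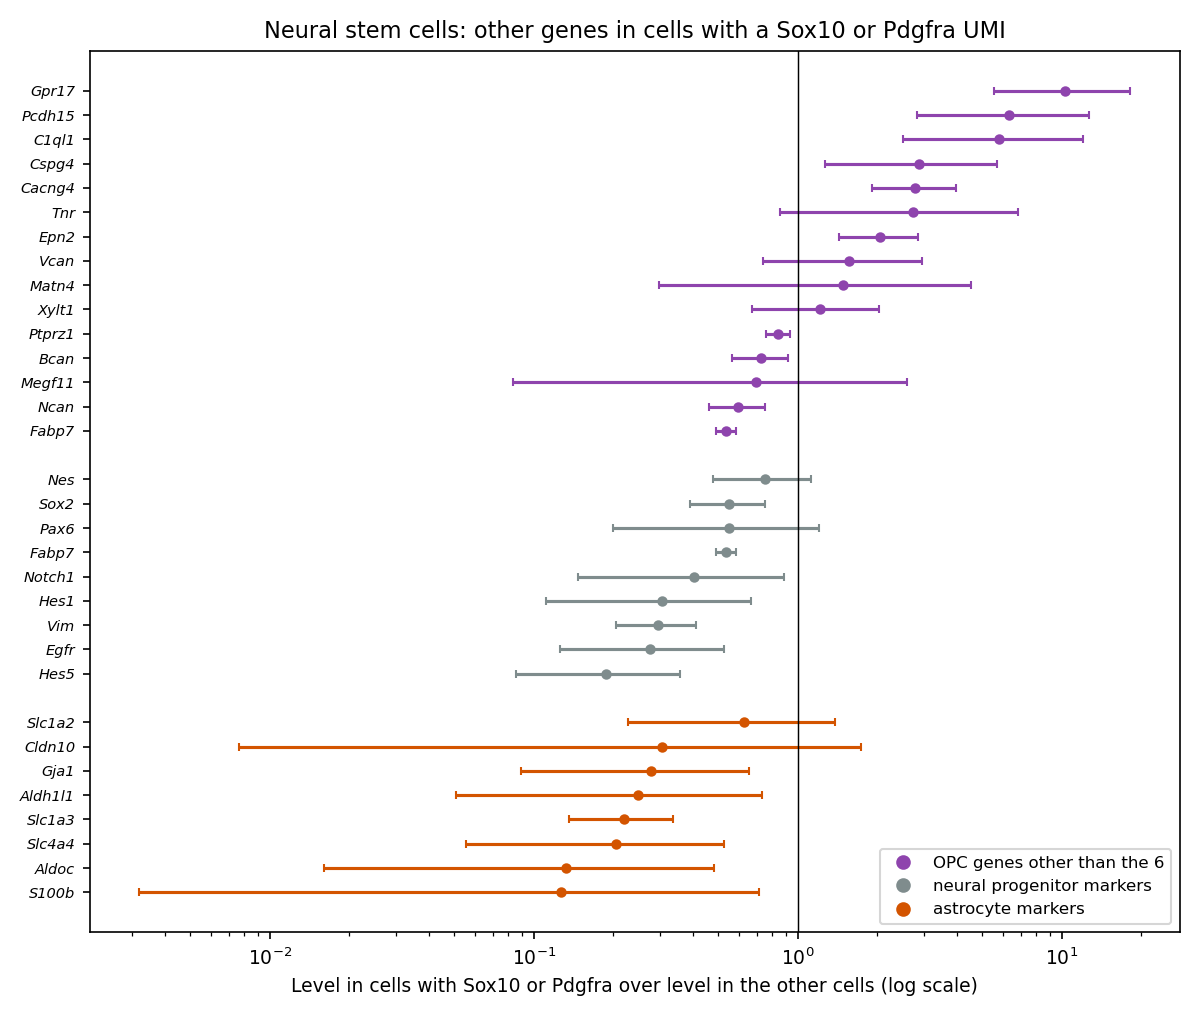
Level of other genes in the 251 neural stem cells with a Sox10 or Pdgfra UMI over their level in the other 7437 cells (log scale, cells thinned to 1000 UMIs), with exact 95% intervals. Genes are those with at least 20 UMIs in all and UMIs on both sides, in precursor genes (purple), progenitor markers (grey) and astrocyte markers (orange), and Fabp7 is in the first and the second list. Gpr17 is highest at 10.3, and each astrocyte marker drawn lies below 1, with the intervals of Slc1a2 and Cldn10 reaching past it.

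In MIM-treated astrocytes only 24 thinned cells held Sox10 or Pdgfra, and they held 0 UMIs of Gpr17, Cspg4 and C1ql1. Over the whole library Gpr17 had 1.12 CPM, Cspg4 1.77 CPM and C1ql1 2.61 CPM. At such levels a count of 0 in 24 cells cannot show that a gene was lower in them. Of 14 precursor genes measured, 4 were at least 2-fold higher in these 24 cells and 7 lower by as much, with a median ratio of 0.695. Cells with Lhfpl3 were numerous enough in this library, 629 against 13362. In them C1ql1 was 13.8-fold higher (7.89 to 23.7), Cspg4 7.72-fold (2.97 to 18.0), Gpr17 7.44-fold (2.66 to 18.3) and Tnr, the glycoprotein tenascin-R, 6.37-fold (3.54 to 10.9). Bcas1 was 9.27-fold higher (5.49 to 15.2). Of 7 differentiating and myelinating genes measured, 4 were at least 2-fold higher and 1 lower by as much, with a median ratio of 2.20. Of 14 precursor genes measured, 7 were at least 2-fold higher and 1, Fabp7, was lower by as much, at 0.469 (0.452 to 0.487), where 11.6% of 10696 genes other than the 6 were higher and 15.3% lower. Of 11 astrocyte markers 10 were lower by at least 2-fold, and Aqp4 and Gfap had 0 UMIs in these cells.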

How the data were processed

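The deposited values are raw UMI counts per gene and cell. Per the submitters' processing notes, they come from Cell Ranger 3.0.2 with the mm10 build. The submitters' processing notes also name Seurat 3.1.1, without a role. Cells with at least 200 genes and at most 20% mitochondrial UMIs were kept, which removed between 7 and 13 barcodes a library.

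The 6 genes and all gene lists were chosen with earlier results of these data known. UMIs were summed over cells and scaled to 1000000 UMIs a library (CPM). Log2 ratios used 1 CPM as pseudocount, and folds are plain ratios with exact conditional intervals. Thinning drew 1000 UMIs a cell without replacement (seed 1). Clusters used 2000 variable genes without the 6, 30 components, 15 neighbours and the Leiden method at resolution 0.5 (scanpy 1.11.5). Up to 4 genes of a list were named by their highest CPM, and C1ql1, Hes5, Myrf, Mbp and the genes named within member-positive cells were chosen after their values were seen. Genes like the members were the first 8 by ratio. Scrublet called 0 doublets in each library and so had not worked; doublets were kept, and an alternative left out the 8% of cells with the highest scores. TMM factors came from edgeR 4.0.16. The methods were tested on simulated data. Scripts ran in R 4.3.3 and in Python 3.11.15 with scipy 1.17.1, numpy 2.4.6, matplotlib 3.10.9 and pandas 2.3.3. UMIs mark molecules, yet intervals and limits cover counting error only.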

Additional observations from a re-analysis of the deposited data

How the results depend on the processing

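No paired analysis was possible because each group is 1 library, and no replicate could be left out. Over all results that are counts or shares, 61 alternative values stayed near the reported one and 20 moved. Near means a count within 1.5-fold of the reported one or a share within its interval. Between MIM-treated and untreated astrocytes, 5 genes past 2-fold when each cell weighed the same and 3 with at least 50 CPM, against 4, thus passed as near. With only genes of at least 50 CPM, 4 of the 6 genes were left and 1 was past 2-fold between MIM-treated astrocytes and neural stem cells, against 3. In MIM-treated astrocytes 2 pairs were together with thinning to 2000 UMIs, with no thinning and, chosen after seeing the data, without Malat1, mitochondrial and ribosomal protein genes at 500 UMIs, against 4. In astrocytes 1 pair was together under the stricter cell filter, against 0, and in neural stem cells 6 at a ratio of at least 1.5, against 3. The share of cells with at least 2 of the genes followed depth by construction. In MIM-treated astrocytes it was 4.80% at 500 UMIs, 19.1% at 2000 and 34.0% unthinned, against 12.5%. Without the genes named above, also at 500 UMIs, it was 7.38%, above the 4.80% with them. In astrocytes it was 0.0204% at 500 UMIs, 0.613% at 2000, 3.01% unthinned, 0.212% under the stricter filter and 0.222% with another seed, against 0.116%. In neural stem cells it was 6.19% at 500 UMIs, 28.3% at 2000 and 23.9% unthinned, against 15.1%. Without those genes, also at 500 UMIs, it was 12.8%, above the 6.19% with them. At resolution 1.0 the largest number of genes with the same highest astrocyte cluster was 1, so none shared it, against 2. Unless named, the cause of a move was not tested. Few UMIs limit the values of Sox10 and Pdgfra outside neural stem cells and of every pair in thinned astrocytes.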

Other observations

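Neural stem cell cluster 5, 247 cells led by Ubb, Jund and H2afx, had the highest Olig1 and Olig2 of its library, at 1677 CPM (1590 to 1766) and 323 CPM (286 to 364). Sox8 was 104 CPM there, against 209 CPM in cluster 4, and Sox10 2.36 CPM, against 34.2 CPM. These cells were the deepest of the library, with a median of 2724 UMIs, and the part of depth was not tested. At this resolution Olig1 and Olig2 were thus highest in 1 group of neural stem cells, and Sox8, Sox10, Pdgfra and Lhfpl3 in another. At resolution 1.0 Sox8 no longer peaked with Sox10, Pdgfra and Lhfpl3. It had 212 CPM (192 to 233) in its highest cluster, against 196 CPM (180 to 214) in theirs, and these intervals overlap.

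Relatives of Lhfpl3 and Pdgfra differed from them in range or in order. Lhfpl4 had 4.64 CPM in MIM-treated astrocytes, 3.85 CPM in astrocytes and 10.8 CPM in neural stem cells. This is the order of Lhfpl3 over a far narrower range. Lhfp had 24.2 CPM in MIM-treated astrocytes, 109 CPM in astrocytes and 70.3 CPM in neural stem cells. Pdgfrl, a receptor-like gene, had 20.0 CPM in MIM-treated astrocytes, 129 CPM in astrocytes and 5.04 CPM in neural stem cells, an order unlike that of Pdgfra.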
